A study of Arabidopsis thaliana with 8 samples.

Results

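The genes described here are SWEET2 (AT3G14770), SWEET11 (AT3G48740), SWEET16 (AT3G16690) and SWEET17 (AT4G15920), 4 of 13350 Arabidopsis thaliana genes with a probe set of their own on the arrays. Each of the 4 was read by 1 probe set. The SWEET family list holds 17 genes, and 16 of them had a probe set tied to that gene alone, all but SWEET12. The 4 genes were chosen by their measured differences between genotypes: they are those of the 16 that passed the limma test in at least 1 of 6 comparisons, so the values that chose them are the values given below. The differences that passed are therefore given as a description and support no further statement. For the fit of all arrays the text gives no p-value for them, except for the one nearest the threshold. Refits with arrays left out use the same values and are a description too.

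Whole seedlings of 4 genotypes were measured on 8 Affymetrix arrays, with 2 biological replicates per genotype per the labels: the gbf1 hy5 double mutant, the gbf1 hyh double mutant, the gbf1 single mutant and wild type (Col-0). All seedlings were 4 days old. They were kept at 4 °C for 4 days and then grown at 22 °C under continuous white light (20 µmol/m2/s), on medium holding 1% sucrose. Sugar was thus supplied in the medium to every genotype. The labels name no allele for any mutant and no ecotype for the mutants, so genetic background and mutation cannot be told apart. Both double mutants carry the gbf1 mutation, and no hy5 or hyh single mutant was analysed here.

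SWEET proteins are small membrane proteins that let sugars pass down their concentration gradient, in either direction and without coupling to protons. SWEET11 sits in the plasma membrane of phloem parenchyma and, together with SWEET12, releases sucrose for loading into the phloem. SWEET2, SWEET16 and SWEET17 sit in the vacuolar membrane, where SWEET2 carries glucose and is known from roots, SWEET16 carries glucose, fructose and sucrose, and SWEET17 carries fructose. The bZIP transcription factors GBF1, HY5 and HYH act in the light response, and HY5 has been reported to promote SWEET11 and SWEET12 in shoots.

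Levels are log2 signals from which each probe set's own median over the 8 arrays has been taken off. A level holds no absolute expression, so levels of different genes are not set against each other. Differences are those of genotype means on the log2 scale (n = 2 arrays each, with standard error, SE), and a call is an adjusted p under 0.05 over 22746 probe sets. Each SE rests on 1 spread per probe set pooled over the 4 genotypes, so it does not follow the scatter of the genotypes compared. Over all probe sets, the SD of the difference between replicates was 0.366 in gbf1 and 0.350 in gbf1 hyh. It was 0.236 in wild type and 0.239 in gbf1 hy5. In whole seedlings, fewer cells of a type and less RNA per cell cannot be told apart. Spike-in controls averaged 0.836 on 1 gbf1 array (replicate 2) and 0.647 on 1 gbf1 hyh array (replicate 2), against a range of -0.304 to 0.175 on the other 6 arrays. In each of the 4 genotypes that mean was higher on replicate 2 than on replicate 1. Values with both high spike-in arrays left out are given where they change a call of a gene named here. Of the mutated genes only HYH could be read, at -0.933 ± 0.110 (SD, n = 2) in gbf1 hy5, -1.91 ± 0.173 in gbf1 hyh and 1.82 ± 0.175 in gbf1, against 0.965 ± 0.156 in wild type.

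Of the 24 pairs of gene and comparison, 7 passed, each gene in a different set of comparisons. SWEET11 rose in both double mutants against wild type. SWEET16 fell in gbf1 hyh against wild type and against gbf1. SWEET2 fell in both double mutants against gbf1. SWEET17 was higher in gbf1 hy5 than in gbf1 hyh. No SWEET gene passed in gbf1 against wild type, where 0.418% of all probe sets did (0.224% higher, 0.193% lower). In that comparison 1 of the 4 genes, SWEET2, had an unadjusted limma p under 0.05. The share of all probe sets under that unadjusted cutoff was not counted, so nothing is read from such counts. In 23 of the 24 pairs the arrays of the compared genotypes did not overlap. With 2 arrays per genotype this is common. Of all probe sets, 36.8% did not overlap in gbf1 against wild type, 46.5% in gbf1 hy5 and 40.4% in gbf1 hyh against wild type, 45.4% in gbf1 hy5 and 38.3% in gbf1 hyh against gbf1, and 44.1% in gbf1 hy5 against gbf1 hyh. The comparisons share arrays and are not independent of each other.

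**Figure D1:**
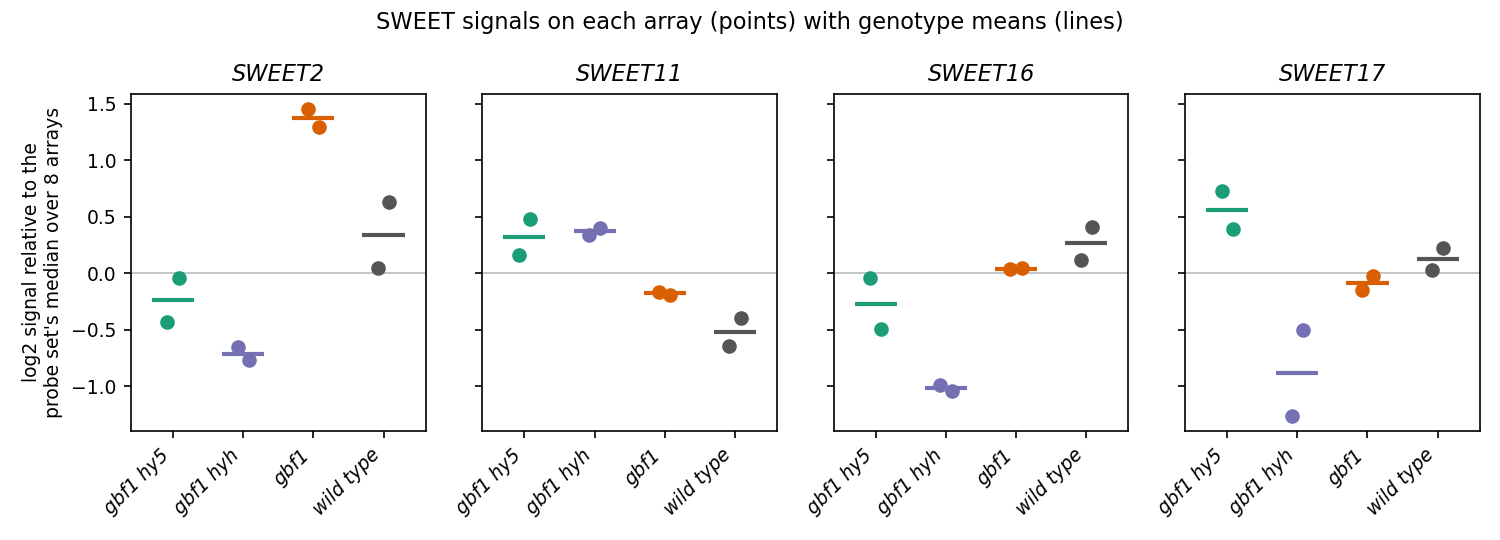
The log2 signal of SWEET2, SWEET11, SWEET16 and SWEET17 relative to each probe set's median is plotted for each of the 8 arrays (points) by genotype, with lines at the genotype means of 2 arrays. SWEET2 stands at 1.46 and 1.30 in gbf1, SWEET16 at -0.992 and -1.04 in gbf1 hyh, and the points of SWEET17 in gbf1 hyh lie far apart, at -1.26 and -0.498.

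SWEET11, the plasma membrane sucrose exporter, had its lowest signal in wild type. Its signal was 0.166 and 0.480 in gbf1 hy5, 0.343 and 0.404 in gbf1 hyh, and -0.166 and -0.190 in gbf1, against -0.645 and -0.396 in wild type. The arrays of both double mutants lay above those of gbf1, and those of gbf1 lay above those of wild type, while the 2 double mutants overlapped. Against wild type SWEET11 rose by 0.84 (SE 0.161), or 1.79-fold, in gbf1 hy5, where 2.18% of all probe sets passed (1.06% higher, 1.11% lower). In gbf1 hyh it rose by 0.89 (SE 0.161), or 1.86-fold, where 1.28% of all probe sets passed (0.365% higher, 0.919% lower). The mean of gbf1 lay between, 0.34 above wild type (adjusted p = 0.603), and the double mutants stood 0.50 (gbf1 hy5, adjusted p = 0.133) and 0.55 (gbf1 hyh, adjusted p = 0.136) above gbf1 without passing. Between the double mutants, gbf1 hy5 minus gbf1 hyh was -0.050, with a 95% interval of -0.41 to 0.31.

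The order of SWEET11 means was thus gbf1 hyh, gbf1 hy5, gbf1 and wild type, and no neighbours in that order differed at an adjusted p under 0.05. Both calls of SWEET11 ended with any 1 array of the compared genotypes left out, in fits that also hold fewer arrays. The gbf1 hy5 call ended without gbf1 hy5 replicate 1 (adjusted p = 0.0903) or 2 (0.264), or without wild type replicate 1 (0.250) or 2 (0.141). The gbf1 hyh call ended without gbf1 hyh replicate 1 (adjusted p = 0.0713), gbf1 hyh replicate 2 (0.171), wild type replicate 1 (0.303), wild type replicate 2 (0.149) or either gbf1 hy5 array (0.060), with both high spike-in arrays left out (0.0907), and when gbf1 hyh and wild type were fitted alone (0.0743). The difference itself stayed between 0.69 and 1.00 in gbf1 hy5 and between 0.77 and 1.02 in gbf1 hyh with any 1 array left out.

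Of the 3 vacuolar members, SWEET2 spanned the widest range over the 8 arrays, 2.23, which is wider than in 99.0% of all probe sets. Its signal was -0.430 and -0.044 in gbf1 hy5, -0.656 and -0.770 in gbf1 hyh, and 1.46 and 1.30 in gbf1, against 0.044 and 0.634 in wild type. Both gbf1 arrays were high, both arrays of each double mutant were low, and wild type lay between with its 2 arrays well apart. Against gbf1, SWEET2 fell by 1.62 (SE 0.215) in gbf1 hy5, a 3.06-fold lower signal, and 4.45% of all probe sets passed in that comparison (2.4% higher, 2.05% lower). In gbf1 hyh it fell by 2.09 (SE 0.215) against gbf1, a 4.26-fold lower signal, where 2.51% of all probe sets passed (1.01% higher, 1.5% lower).

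Against wild type no difference of SWEET2 passed in the fit without a replicate block. The difference was 1.04 (SE 0.215, adjusted p = 0.104) in gbf1, -0.58 (adjusted p = 0.292) in gbf1 hy5 and -1.05 (adjusted p = 0.0583) in gbf1 hyh. With replicate number added to the fit as a block, the gbf1 hyh difference passed (adjusted p = 0.0484). With 1 array left out the gbf1 hy5 difference lay between -0.87 (without wild type replicate 1) and -0.28 (without wild type replicate 2). The 2 double mutants differed by 0.48 (gbf1 hy5 minus gbf1 hyh, 95% interval -0.010 to 0.96, adjusted p = 0.365). The order of means was gbf1, wild type, gbf1 hy5 and gbf1 hyh, and no pair of neighbours in it passed. The fall in gbf1 hyh against gbf1 lay between -2.17 and -2.01 with any 1 array left out, in refits of the values that chose the gene. The fall in gbf1 hy5 against gbf1 did not pass without gbf1 hy5 replicate 1 (-1.42, adjusted p = 0.0519).

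The root hair markers measured were highest in gbf1 and lower in both double mutants, as SWEET2 was. Of 6 root hair markers listed, 2 had a probe set of their own, the expansin genes EXPA7 and EXPA18. Over the other genotypes the order of EXPA18 differed from that of SWEET2, while the EXPA7 arrays of those genotypes overlapped. EXPA18 was at -0.305 and -0.337 in gbf1 hy5, 0.305 and 0.663 in gbf1 hyh, and 1.37 and 1.41 in gbf1, against -0.500 and -0.684 in wild type. EXPA7 was at -0.115 on both arrays of gbf1 hy5, -0.158 and 0.184 in gbf1 hyh, and 0.758 and 1.38 in gbf1, against -0.328 and 0.115 in wild type. For EXPA18 the limma difference from gbf1 was -1.71 in gbf1 hy5 (adjusted p = 0.000659) and -0.91 in gbf1 hyh (adjusted p = 0.0215). For EXPA7 it was -1.185 in gbf1 hy5 (adjusted p = 0.0246) and -1.06 in gbf1 hyh, which did not pass (adjusted p = 0.055). EXPA18 was 1.08 higher in gbf1 hyh than in wild type (adjusted p = 0.0146), where SWEET2 had its lowest mean. The difference gbf1 hy5 minus gbf1 hyh was -0.81 for EXPA18 (adjusted p = 0.0332), where that of SWEET2 was 0.48 and did not pass. Their part in the SWEET2 values was not tested. None of the 6 phloem, 6 xylem and 5 mesophyll markers listed had a probe set tied to 1 gene in the probe table used here, so the share of these tissues was not checked.

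SWEET16, a vacuolar carrier of glucose, fructose and sucrose, was low in gbf1 hyh. Its signal was -0.038 and -0.497 in gbf1 hy5, -0.992 and -1.04 in gbf1 hyh, and 0.038 and 0.047 in gbf1, against 0.121 and 0.412 in wild type. The 2 gbf1 hyh arrays agreed closely and lay below the other 6 arrays, and the gbf1 hy5 arrays lay between them and the remaining 4. SWEET16 fell in gbf1 hyh by 1.28 (SE 0.182) against wild type, a 2.43-fold lower signal, and by 1.06 (SE 0.182) against gbf1, a 2.08-fold lower signal. It did not pass in gbf1 hy5, at -0.53 against wild type (adjusted p = 0.232) and -0.31 against gbf1 (adjusted p = 0.459), nor in gbf1 against wild type (-0.22, adjusted p = 0.817). The 2 gbf1 hy5 differences were -0.76 and -0.54 without gbf1 hy5 replicate 1, and -0.30 and -0.080 without gbf1 hy5 replicate 2.

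The direct difference of SWEET16 between the double mutants, gbf1 hy5 minus gbf1 hyh, was 0.75 (SE 0.182, adjusted p = 0.071), so its fall is not shown to be particular to gbf1 hyh. In order of means, wild type was followed by gbf1, gbf1 hy5 and gbf1 hyh, and no neighbours in this order passed. The call against wild type ended without gbf1 hyh replicate 2 (adjusted p = 0.0755), wild type replicate 1 (0.0717) or wild type replicate 2 (0.152), and with a trended robust prior (0.102). The call against gbf1 ended without gbf1 hyh replicate 1 (0.0627), gbf1 hyh replicate 2 (0.0868), gbf1 replicate 1 (0.0517) or gbf1 replicate 2 (0.0734). It also ended with both high spike-in arrays left out (0.105), with the trended robust prior (0.126), and when gbf1 hyh and gbf1 were fitted alone (0.0865). With any 1 array left out the difference kept its size, between -1.43 and -1.14 against wild type and between -1.08 and -1.03 against gbf1.

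SWEET17, the vacuolar fructose carrier, was the member whose 2 double mutants lay on opposite sides of gbf1 and of wild type. Its signal was 0.728 and 0.393 in gbf1 hy5, -1.26 and -0.498 in gbf1 hyh, and -0.150 and -0.026 in gbf1, against 0.026 and 0.228 in wild type. Both gbf1 hy5 arrays were above all others and both gbf1 hyh arrays below all others. SWEET17 was 1.44 (SE 0.241) higher in gbf1 hy5 than in gbf1 hyh, or 2.71-fold, in the comparison where 2.77% of all probe sets passed (1.76% higher, 1.02% lower). Against gbf1 it was 0.65 higher in gbf1 hy5 (adjusted p = 0.197) and 0.79 lower in gbf1 hyh (-0.79, adjusted p = 0.154). Against wild type it was at 0.43 in gbf1 hy5 (adjusted p = 0.571) and -1.01 in gbf1 hyh (adjusted p = 0.110), and gbf1 minus wild type was -0.22 (95% interval -0.76 to 0.33).

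For SWEET17 the order of means was gbf1 hy5, wild type, gbf1 and gbf1 hyh, and only the outer genotypes of that order differed past the threshold. The 2 gbf1 hyh arrays lay further apart (SD 0.539) than those of gbf1 hy5 (SD 0.237), gbf1 (SD 0.0872) or wild type (SD 0.142). Without gbf1 hyh replicate 2, the SWEET17 differences in gbf1 hyh were -1.39 against wild type and -1.17 against gbf1. Without gbf1 hyh replicate 1 those differences were -0.63 and -0.41. The gbf1 hy5 difference from wild type was 0.27 without gbf1 hy5 replicate 1 and 0.60 without gbf1 hy5 replicate 2. With both high spike-in arrays left out, the SWEET17 difference in gbf1 hyh minus wild type was -1.39. The difference between the double mutants did not pass without gbf1 hy5 replicate 1 (1.27, adjusted p = 0.158) or gbf1 hy5 replicate 2 (1.61, adjusted p = 0.0775), nor when the double mutants were fitted alone (adjusted p = 0.0648), and without gbf1 hyh replicate 1 it was 1.06.

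**Figure D2:**
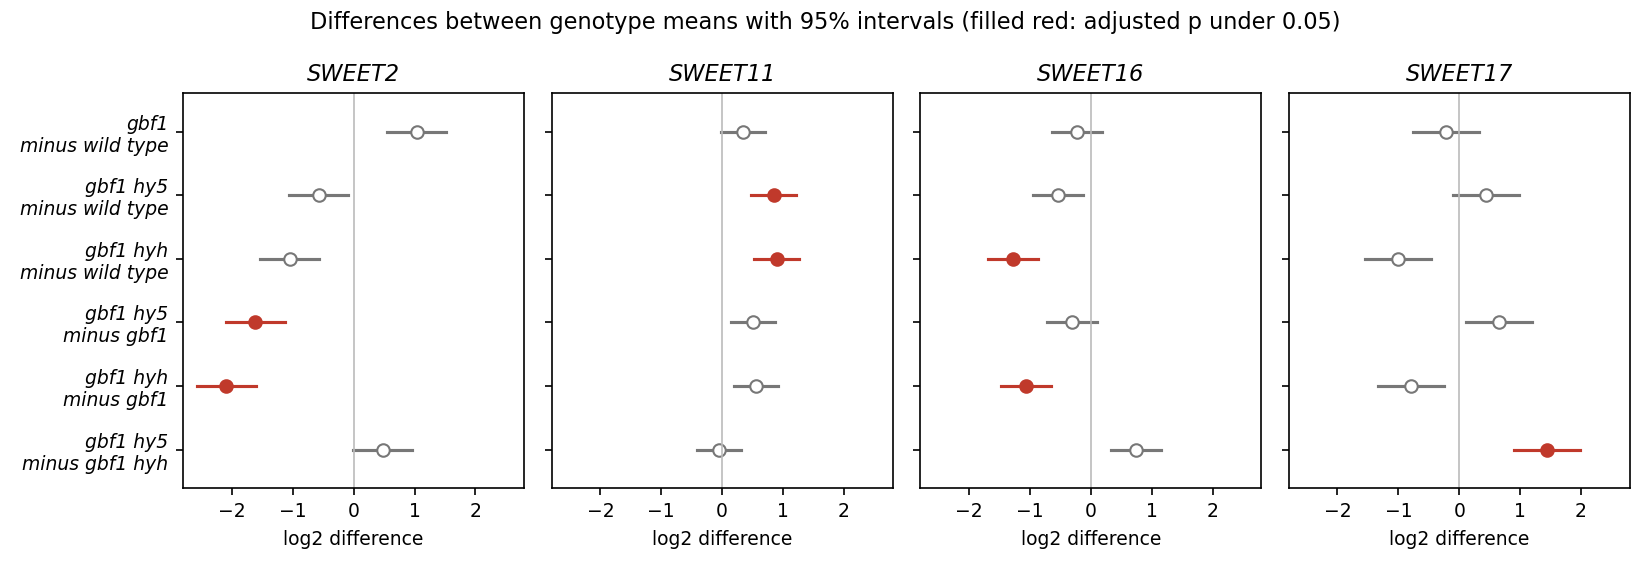
Log2 differences between genotype means of the 4 SWEET genes are drawn for the 6 comparisons, with horizontal 95% intervals that are not adjusted for multiple tests. Filled red points passed at an adjusted p under 0.05, 7 of the 24, from -2.09 for SWEET2 in gbf1 hyh minus gbf1 to 1.44 for SWEET17 in gbf1 hy5 minus gbf1 hyh.

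**Figure D3:**
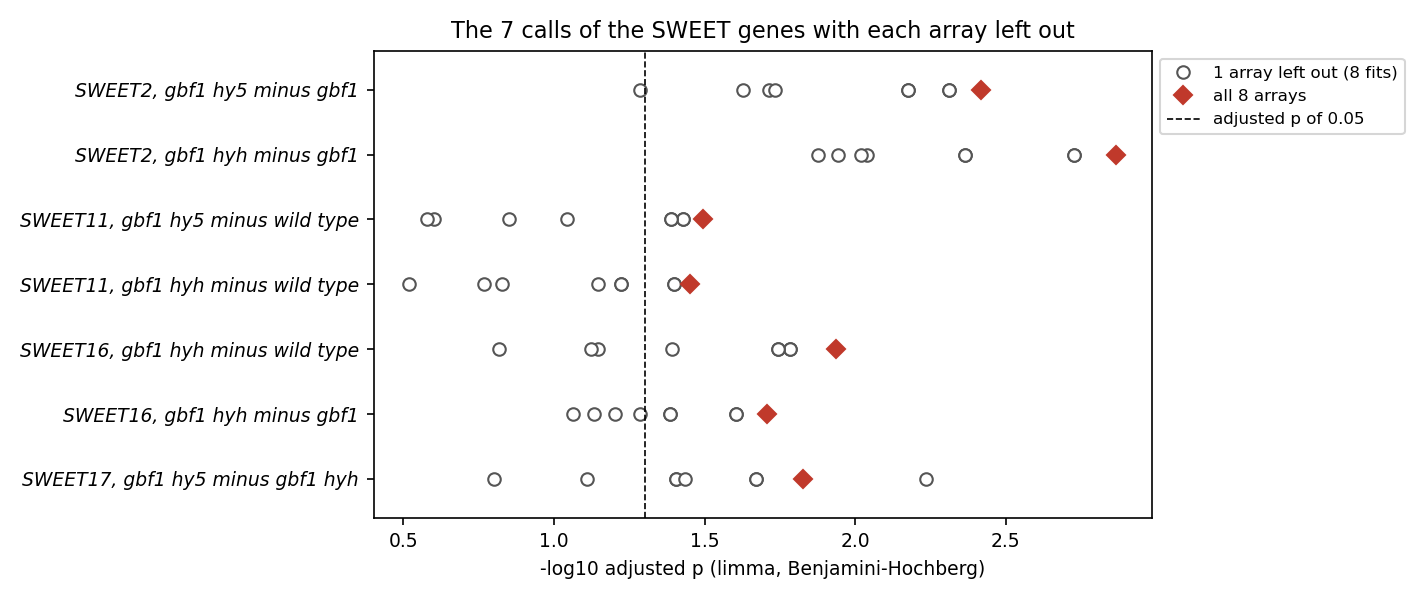
The horizontal axis gives -log10 of the limma adjusted p for each of the 7 calls, with all 8 arrays (red diamonds) and with each array left out in turn (open circles, 8 fits each). Only the circles of SWEET2 in gbf1 hyh minus gbf1 all lie right of the dashed line at an adjusted p of 0.05. The refits use the values that chose the genes, so the plot is a description.

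In gbf1 hyh against wild type, 1 of 4 rose and 1 fell, and their median difference was -1.03, beside a median of 0.030 over all probe sets. In gbf1 hyh against gbf1, 2 of 4 fell, with a median of -0.93 beside 0.021 over all probe sets. In gbf1 hy5 against wild type 1 of 4 rose, with a median of -0.050 beside 0.024. In gbf1 hy5 against gbf1 1 of 4 fell, with a median of 0.096 beside 0.012. In gbf1 hy5 against gbf1 hyh 1 of 4 was higher, with a median of 0.61 beside -0.0069. These counts and medians are fixed by how the genes were chosen, and nothing is read from them. Over the 8 arrays, as a description of arrays that share their genotypes, the Pearson correlation was highest between SWEET2 and SWEET16 (0.696) and lowest between SWEET11 and SWEET16 (-0.818).

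The remaining 12 SWEET genes measured gave no call in 72 pairs of gene and comparison by limma, and 9 of the 72 had an unadjusted p under 0.05. For this count too the share of all probe sets was not counted. Of these 12, SWEET3 came nearest to the threshold. Its signal was 0.0040 and 0.283 in gbf1 hy5, 0.124 and -0.252 in gbf1 hyh, and -0.0040 and 0.093 in gbf1, against -0.559 and -0.618 in wild type. All 6 mutant arrays were above both wild type arrays, with differences from wild type of 0.73 in gbf1 hy5 (adjusted p = 0.072), 0.53 in gbf1 hyh (adjusted p = 0.277) and 0.63 in gbf1 (adjusted p = 0.242). Just inside the threshold stood SWEET11 in gbf1 hyh against wild type, at an adjusted p of 0.0353.

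Of the other unchosen members, SWEET15, a gene linked to senescence, had the widest range, 1.36. It was at 0.481 and 0.138 in gbf1 hy5, -0.362 and -0.110 in gbf1 hyh, and 0.055 and 0.995 in gbf1, against -0.055 and -0.268 in wild type. The wide range came from gbf1 replicate 2, 1 of the 2 arrays of high spike-in signal. Ranges of SWEET1, SWEET4, SWEET5, SWEET6, SWEET7, SWEET8, SWEET9, SWEET10, SWEET13 and SWEET14 lay between 0.262 (SWEET6) and 0.960 (SWEET8), where the median over all probe sets was 0.604.

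**Figure D4:**
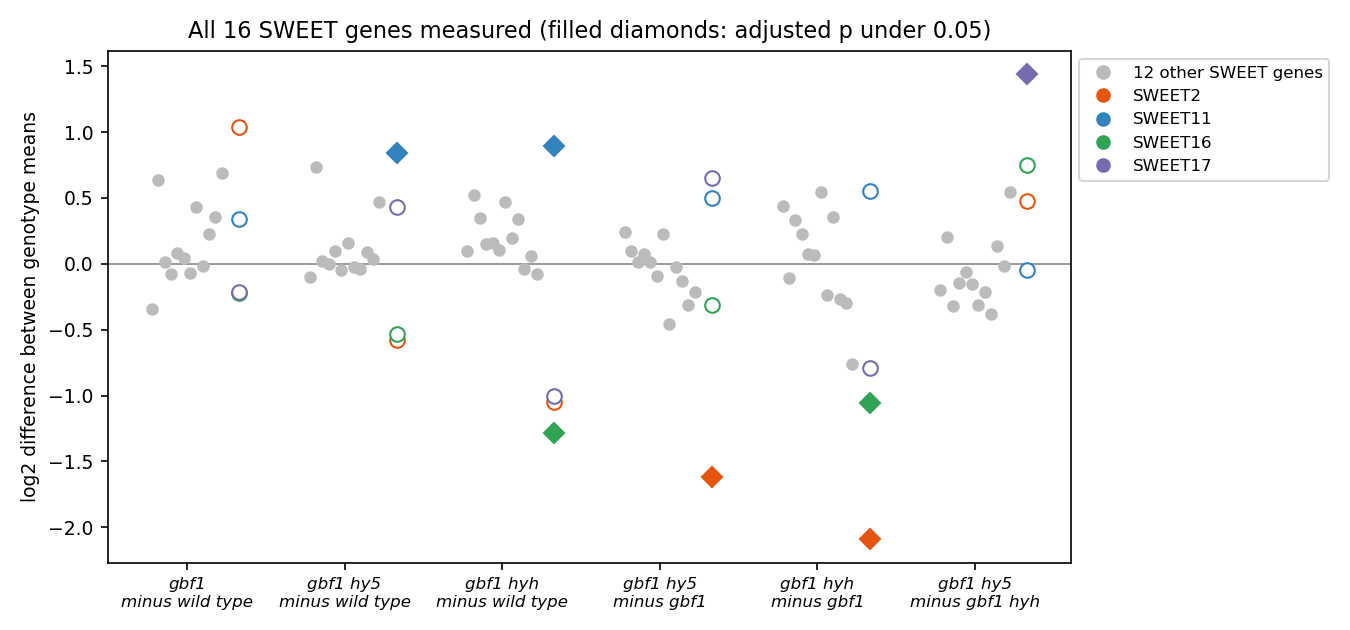
The vertical axis gives the log2 difference between genotype means for all 16 SWEET genes measured, in 6 comparisons. Grey points are the 12 SWEET genes without a call, which lie between -0.76 and 0.73. Coloured symbols are SWEET2, SWEET11, SWEET16 and SWEET17, filled where they passed.

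Other genes of sugar transport and sucrose turnover were taken from lists of 92 genes, and 25 of these could be read by a single-gene probe set. Against wild type 1 of 25 was higher in gbf1 hy5 (beside 1.06% of all probe sets higher) and 1 was higher in gbf1 hyh (beside 0.365% higher). Against gbf1, 3 of 25 were higher in gbf1 hy5 (beside 2.4% of all probe sets higher). In gbf1 hyh 2 were higher and 1 lower against gbf1 (beside 1.01% higher and 1.5% lower). Between the double mutants 1 was higher in gbf1 hy5 (beside 1.76% higher). None passed in gbf1 against wild type by limma (beside 0.418% of all probe sets). There 5 had an unadjusted p under 0.05, a cutoff whose share of all probe sets was not counted. Median differences of the 25 lay between -0.037 and 0.14 in the 6 comparisons. No sucrose-proton symporter (of 9) and no hexose kinase (of 4) was tied to a single-gene probe set in the probe table used here, which names no gene for 8730 probe sets, so neither the phloem loader SUC2 nor hexokinase was set beside SWEET11. None of 4 hexose-proton symporters and none of 2 polyol transporters measured passed in any comparison.

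Among 4 vacuolar sugar carriers measured, TMT1, an antiporter that loads sugars into the vacuole, passed in both double mutants against gbf1. Its signal was 0.355 and 0.028 in gbf1 hy5, 0.203 and 0.544 in gbf1 hyh, and -0.803 and -0.667 in gbf1, against -0.028 and -0.115 in wild type. It was lowest in gbf1, where the vacuolar gene SWEET2 was highest. TMT1 rose by 0.93 in gbf1 hy5 (SE 0.175, adjusted p = 0.0197) and by 1.11 in gbf1 hyh (SE 0.175, adjusted p = 0.013) against gbf1. The gbf1 hy5 call of TMT1 ended without any 1 array of the 2 genotypes compared (adjusted p 0.0544 to 0.178), and when those 2 were fitted alone (0.0534). The gbf1 hyh call ended without gbf1 hyh replicate 2 (0.0705), with both high spike-in arrays left out (1.00, adjusted p = 0.0602), and when gbf1 hyh and gbf1 were fitted alone (0.118).

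In the list of ERD6-like transporters, 10 of 19 genes were measured and 1 passed, AT3G05150. Its signal was 1.38 and 1.27 in gbf1 hy5, 1.63 and 1.79 in gbf1 hyh, and -1.51 and -1.27 in gbf1, against -1.36 on both arrays of wild type. It rose by 2.68 in gbf1 hy5 and by 3.07 in gbf1 hyh against wild type (SE 0.148 each, adjusted p = 5.12e-05 and 2.38e-05), and like SWEET11 it was high in both double mutants. Its rise exceeded that of SWEET11 on the log2 scale in both comparisons, and it passed with any 1 array left out, at an adjusted p of at most 0.00298 over its 4 calls. Another 2 genes of this list passed only with both high spike-in arrays left out or in the genotypes fitted alone, and are named after their values were seen. AT3G05400 was 0.79 higher in gbf1 hy5 than in wild type (adjusted p = 0.172 with all arrays, and 0.016 with these genotypes fitted alone). For this comparison, leaving out both high spike-in arrays gives the same fit, as only these genotypes keep 2 arrays. SFP2 differed by -0.56 in gbf1 hy5 minus gbf1 hyh with all arrays (adjusted p = 0.379) and by -0.97 with both high spike-in arrays left out. The latter fit holds 1 gbf1 hyh array, with SFP2 at 0.615, against -0.202 on the gbf1 hyh array left out. The spread between those arrays does not enter that fit.

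Of 3 sucrose synthesis genes measured, SPS4F, a sucrose-phosphate synthase, passed once. It was at 0.412 and 0.751 in gbf1 hy5, 0.293 and -0.327 in gbf1 hyh, and -0.514 and -1.18 in gbf1, against -0.057 and 0.057 in wild type. In gbf1 hy5 its mean rose by 1.43 relative to gbf1 (SE 0.262, adjusted p = 0.0176), and this call ended without gbf1 replicate 2 (adjusted p = 0.0819), or without gbf1 hy5 replicate 1 (0.0799) or 2 (0.161). Of 2 genes measured in the invertase list, AT1G62660 was lowest in gbf1 hyh, as SWEET2, SWEET16 and SWEET17 were. Its signal was 0.222 and 0.128 in gbf1 hy5, -0.595 and -0.711 in gbf1 hyh, and 0.286 and 0.207 in gbf1, against -0.128 and -0.213 in wild type. Relative to gbf1 it fell by 0.90 in gbf1 hyh (SE 0.137, adjusted p = 0.0112) and was 0.83 higher in gbf1 hy5 than in gbf1 hyh (SE 0.137, adjusted p = 0.0143). The first of these calls ended without gbf1 hyh replicate 2 (adjusted p = 0.0594), with both high spike-in arrays left out (-0.88, adjusted p = 0.0529), with the trended robust prior (0.0664) and in the compared genotypes alone (0.137). The second ended without gbf1 hyh replicate 2 (0.0837), without gbf1 hy5 replicate 1 (0.142) or 2 (0.104), with the trended robust prior (0.0887) and in the compared genotypes alone (0.0521).

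**Figure D5:**
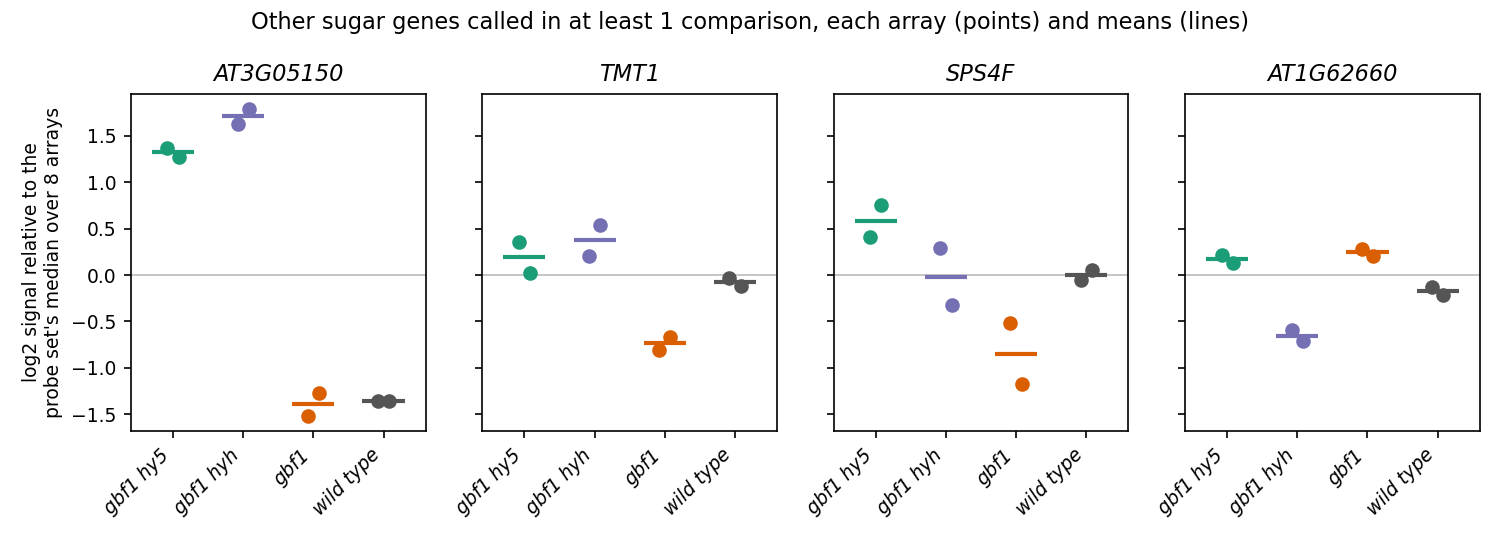
Log2 signals relative to each probe set's median are plotted for each of the 8 arrays (points) by genotype, with lines at the means, for the 4 listed sugar genes other than SWEET genes that passed in at least 1 comparison. AT3G05150 lies above 1.2 in both double mutants and below -1.2 in gbf1 and wild type, and TMT1 is lowest in gbf1.

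Genes whose pattern over the 8 arrays was most like each member were ranked by Pearson correlation among probe sets tied to 1 gene. The 8 arrays are 4 pairs of replicates, so such correlations mainly follow the genotype means. The closest to SWEET2 were AT3G50560 (0.972), AT3G51090 (0.970) and the kinase gene WNK7 (0.966). AT3G50560 had means of -0.35 in gbf1 hy5, -1.20 in gbf1 hyh and 1.09 in gbf1, against 0.38 in wild type. The closest to SWEET11 were AT4G09670 (0.972), AT5G45480 (0.966) and AT3G24150 (0.964). Those closest to SWEET16 were AT2G16460 (0.955), AT1G66100 (0.950) and AT5G65380 (0.943), and AT1G66100 had a mean of -3.21 in gbf1 hyh against 1.17 in wild type. For SWEET17 they were AT5G05710 (0.969), AT5G55620 (0.969) and AT3G18930 (0.958). A correlation over 0.9 was found for 47 probe sets with SWEET2, 23 with SWEET11, 20 with SWEET16 and 24 with SWEET17.

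SWEET2, SWEET11 and SWEET16 lie on the same chromosome as HYH, and gene order was taken from the TAIR10.1 annotation. SWEET16 was 99 protein-coding genes away from HYH, SWEET2 was 312 away and SWEET11 was 2083 away, while SWEET17 is on another chromosome. Of the 50 measured genes nearest to each gene, 25 on either side, at most 5 passed in any comparison. In gbf1 hyh against wild type the calls were 2 of 50 around SWEET17 (4.0%), 1 of 50 around SWEET16 (2.0%) and 0 of 50 around SWEET2, SWEET11 and HYH itself by limma, beside 1.28% of all probe sets. The call near SWEET16 was JAL33, a jacalin-type lectin gene 27 genes away, which fell by 5.09 (adjusted p = 7.74e-05) and also fell by 4.91 in gbf1 hy5 against wild type (adjusted p = 0.000128). In gbf1 hyh against gbf1, 3 of 50 passed around SWEET16 (6.0%) beside 2.51%. The nearest was AT3G16670, 2 genes away, which rose by 2.17 (adjusted p = 0.0209) while SWEET16 fell. In gbf1 hy5 against gbf1, 4 of 50 passed around SWEET16 (8.0%) beside 4.45%.

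Around SWEET2, AT3G14600 fell with it against gbf1, by 1.82 in gbf1 hy5 (adjusted p = 0.00375) and by 1.15 in gbf1 hyh (adjusted p = 0.0431), and was 17 genes away. Around SWEET11, AT3G48970, 23 genes away, rose by 1.60 in gbf1 hy5 against wild type (adjusted p = 0.00531). Around SWEET17, 4 of 50 passed in gbf1 hy5 against wild type, all lower, beside 2.18% of all probe sets. In gbf1 hyh against gbf1 5 of 50 passed, beside 2.51%, and in gbf1 hy5 against gbf1 hyh 3 of 50, beside 2.77%. Over genes matched to RefSeq alone these shares were 1.73%, 2.3% and 2.32%, in that order. The nearest call in the last of these comparisons, AT4G16140, 28 genes away, was 0.80 higher in gbf1 hy5 than in gbf1 hyh (adjusted p = 0.0216).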

How the data were processed

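Per the labels' protocols, RNA came from whole seedlings (RNeasy), and a 3' IVT Express kit gave biotin-labelled aRNA for Affymetrix arrays. The deposited values are log2 RMA signals: RMA is named per the submitters' processing notes and per the series design text, without a version, and the base of the logarithm was taken from RMA's usual output. Each of the 22810 probe sets has a median of 0 (within 1e-06), so values are relative to each probe set. No level above background can be given.

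After removal of 64 AFFX controls, 22746 probe sets were tested. The platform table tied 13513 of them to 1 gene, 503 to several and 8730 to none. Genes were matched to RefSeq (TAIR10.1) by gene ID, which found 13436. A listed symbol was replaced by the locus where RefSeq does not give it.

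All 8 arrays were fitted as 4 genotype means in limma 3.58.1 (R 4.3.3; lmFit, contrasts.fit, eBayes), with no replicate block, and Benjamini-Hochberg adjustment ran over all 22746. The fit was run on simulated data with the same spread in every genotype. That run does not test how the calls depend on the arrays or settings. Genotypes were read from sample titles. The number of arrays limits the precision. The series design names 5 of the 6 comparisons; the one between the double mutants was added here. Genes named were the 4 members, other SWEET genes, up to 3 called genes per list and comparison, 3 genes most like each member, HYH, and the nearest called neighbours of a member. The members and lists were chosen with earlier results of these data known.

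Replicate numbers were not taken to pair the arrays, since no label ties them. Deviations of same-numbered arrays from their genotype means correlated between -0.114 and 0.336 over the 6 pairs of genotypes, highest for gbf1 with gbf1 hyh. A shared effect of replicate number was not tested beyond the fit with a replicate block. Alternatives were a replicate block, the compared genotypes alone, quantile normalization, a trended robust prior, leaving out each array, and leaving out both arrays of high spike-in signal. Sequences of these genes were not used here.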

Additional observations from a re-analysis of the deposited data

Results flagged for a closer look

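SWEET17 was singled out because its difference between the 2 double mutants passed the limma test itself, gbf1 hy5 minus gbf1 hyh at 1.44 (SE 0.241), with the double mutants on opposite sides of gbf1. It was 0.65 above gbf1 in gbf1 hy5 and at -0.79 in gbf1 hyh, and neither of these passed. SWEET17 was chosen for this difference, so the value is a description. The gbf1 hyh arrays gave -1.26 and -0.498, and the higher of them is 1 of the 2 arrays of high spike-in signal. Without that array the difference between the double mutants was 1.82. Whether the quality of that array bears on the value was not tested.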

How the results depend on the processing

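Of 13 alternatives, SWEET2 in gbf1 hyh minus gbf1 passed in all, and each of the other 6 calls of SWEET genes was lost in at least 1. The cause was not tested. All alternatives use the values that chose the genes, so they are a description. Fitted on the compared genotypes only, with fewer arrays, SWEET11 in gbf1 hyh minus wild type (0.894, adjusted p = 0.0743), SWEET16 in gbf1 hyh minus gbf1 (-1.06, adjusted p = 0.0865) and SWEET17 in gbf1 hy5 minus gbf1 hyh (1.44, adjusted p = 0.0648) did not pass. That left 1, 1 and 0 SWEET calls, from 2, 2 and 1, in gbf1 hyh minus wild type, gbf1 hyh minus gbf1 and gbf1 hy5 minus gbf1 hyh. With a trended robust prior, whose trend runs over centred values, SWEET16 did not pass against wild type (-1.28, adjusted p = 0.102) or gbf1 (-1.06, adjusted p = 0.126), which left 1 SWEET call in each.

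With both high spike-in arrays left out, SWEET11 in gbf1 hyh minus wild type (0.864) and SWEET16 in gbf1 hyh minus gbf1 (-1.03, leaving 1 SWEET call) were lost, and SWEET17 in gbf1 hyh minus wild type was gained (-1.39). With the replicate block SWEET2 in gbf1 hyh minus wild type passed (-1.05, adjusted p = 0.0484), no SWEET call was lost, and 120, 544, 338, 1224, 654 and 736 probe sets were called in place of 95, 495, 292, 1012, 571 and 631. These counts are for gbf1, gbf1 hy5 and gbf1 hyh minus wild type, gbf1 hy5 and gbf1 hyh minus gbf1, and gbf1 hy5 minus gbf1 hyh, in that order.

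Counts of all called probe sets in that order were 36, 1126, 178, 566, 90 and 376 for the compared genotypes alone. After quantile normalization the first 3 were 149, 788 and 465. With the trended robust prior the first, second and last were 61, 295 and 389. With both high spike-in arrays left out, the second is the same fit as for gbf1 hy5 and wild type alone. With 1 array left out they ran from 9 to 138, 88 to 609, 68 to 365, 241 to 1276, 282 to 660 and 162 to 794.

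With 1 array left out, SWEET calls ran from 0 to 1 in gbf1 hy5 minus wild type, 0 to 2 in gbf1 hyh minus wild type, 0 to 1 in gbf1 hy5 minus gbf1, 1 to 2 in gbf1 hyh minus gbf1 and 0 to 1 in gbf1 hy5 minus gbf1 hyh. Differences ran from 0.687 to 1.00 and 0.769 to 1.02 for SWEET11 in gbf1 hy5 and gbf1 hyh minus wild type. For SWEET16 they ran from -1.43 to -1.14 in gbf1 hyh minus wild type and from -1.08 to -1.03 in gbf1 hyh minus gbf1, and for SWEET2 from -1.81 to -1.42 in gbf1 hy5 minus gbf1. SWEET17 ran from 1.06 to 1.82 in gbf1 hy5 minus gbf1 hyh, from -1.39 to -0.625 in gbf1 hyh minus wild type and from -1.17 to -0.410 in gbf1 hyh minus gbf1. SWEET11 in gbf1 hy5 minus gbf1 hyh, which did not pass, ran from -0.207 to 0.107 and changed sign without gbf1 hy5 replicate 1 (0.107).

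For the other sugar genes, the same alternatives were added after the data were seen. The compared genotypes alone gave 2 calls in gbf1 hy5 minus wild type, 1 in gbf1 hyh minus gbf1 and 0 in gbf1 hy5 minus gbf1 hyh. The trended robust prior gave 0 in gbf1 hy5 minus gbf1 hyh. With both high spike-in arrays left out, gbf1 hy5 minus wild type is the same fit as for those genotypes alone (AT3G05400 gained). In that setting TMT1 and AT1G62660 were lost in gbf1 hyh minus gbf1. SFP2 was gained in gbf1 hy5 minus gbf1 hyh, with 1 gbf1 hyh array left. With 1 array left out they ran from 1 to 3 in gbf1 hy5 minus gbf1 and in gbf1 hyh minus gbf1, and from 0 to 1 in gbf1 hy5 minus gbf1 hyh. Because values are centred, no filter on dim probe sets could be run, and which signals stood above background is unknown.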
